A study of Mus musculus with 8 samples.

Results

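The genes of glucose uptake, glycolysis and glycogen were followed in mouse myocardium with and without infarction. The set was a fixed list of 39 gene symbols, of 33249 genes in the deposited table, and it covers glucose entry, the steps of glycolysis, lactate and pyruvate handling, glycogen and the branches into pentose phosphate and hexosamine synthesis. All 39 members passed the filter on low values that 14028 genes passed, which was a mean FPKM (fragments scaled to gene length and library size) of at least 0.5 over the 8 libraries. The name Aldoa belonged to 2 gene identifiers, of which the second stayed under that filter, so 40 rows carried a member name. Poly(A) RNA was sequenced from 2 libraries in each of 4 groups. The fl/fl-Sham hearts carried the floxed Piezo1 allele with no Cre and had the operation without ligation of the coronary artery. The CKO-Sham hearts had the same operation and carried the floxed allele with the Myh6-MerCreMer transgene, a tamoxifen-inducible Cre that the Myh6 promoter drives in cardiomyocytes. The fl/fl-MI and CKO-MI hearts were of the same 2 genotypes and were taken 42 days after permanent ligation of the left anterior descending artery, which causes myocardial infarction (MI). The labels give the 2 genotypes as WT and Piezo1 knockout, and the floxed allele is shared by every group. The sample titles give a day after surgery for the MI libraries only, so the day on which the sham hearts were taken is not in the labels. By the study's methods the mice were young adults at surgery and the CKO mice had received tamoxifen beforehand, while whether the fl/fl littermates received it is not stated. Nor is it stated whether each library came from a single heart, so the p-values below measure the spread between these libraries, which may be technical.

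Glucose enters cells through GLUT transporters, is phosphorylated by hexokinase, and is then either stored as glycogen or split by glycolysis into pyruvate. Pyruvate is reduced to lactate, which leaves or enters the cell through monocarboxylate transporters, or passes into mitochondria through the pyruvate carrier and is oxidised by pyruvate dehydrogenase. The adult heart burns mainly fatty acids, and many glycolytic steps are served by a muscle isozyme that is abundant in cardiomyocytes and by a second isozyme found in most other cells and in the fetal heart.

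Each library held between 73821747 and 88117573 deposited counts, and values below are CPM, deposited counts scaled to 1 common TMM-adjusted library size, unless FPKM is named. Genes of the mitochondrial genome made up 43.1 to 46.4% of all sham counts and 19.9 to 24.2% of all MI counts. Piezo1, the targeted gene, stood at 72.2 and 82.0 CPM in fl/fl-Sham, 76.7 and 88.3 in CKO-Sham, 53.5 and 64.8 in fl/fl-MI and 56.3 and 64.6 in CKO-MI, so it was not lower in the libraries labelled CKO. The gene count covers all exons and all cells of the tissue. Esr1, whose ligand-binding part belongs to the MerCreMer transgene, stood at 8.36 and 6.41 CPM in fl/fl-Sham, 5.52 and 7.599 in CKO-Sham, 7.75 and 331 in fl/fl-MI and 707 and 402 in CKO-MI. Both CKO-Sham libraries and the fl/fl-MI 1-labelled library were low and the fl/fl-MI 2-labelled library was high, as both CKO-MI libraries were, which goes against the label of CKO-Sham and of fl/fl-MI 2. All contrasts below compare libraries by their labels. Every sham library was low in Esr1, and every MI library except fl/fl-MI 1 was high. By Esr1, infarction and transgene thus largely went together, and their parts in the contrasts of MI with sham cannot be told apart. The fl/fl-MI 2-labelled library also held the atrial genes Bmp10 and Myl4 at 3834 and 2810.4 CPM, against at most 18.8 and 48.0 in the other 7 libraries, and results that rest on it are given with and without it. The 12 cardiomyocyte markers were present in every library, with a summed level of 37019.7 to 41686 CPM in sham and 26132 to 48083 CPM in MI libraries.

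After MI, with both genotype labels averaged, genes of glucose entry, glycogen synthesis and monocarboxylate transport were mostly higher. Both subunits of the mitochondrial pyruvate carrier were lower. The muscle isozymes Pfkm, Aldoa, Pgam2, Eno3 and Pygm did not pass the test in either direction with all 8 libraries. For 4 of these 5 (not Aldoa) that result turned on a single fl/fl-MI library. Among other muscle or heart forms, Hk2 and Gys1 were called higher, Ldhb and Pfkfb1 were called lower and Pfkfb2 was not called. Of the 39 members 19 were called higher and 4 lower by edgeR's quasi-likelihood test (4 MI against 4 sham libraries, Benjamini-Hochberg adjusted p under 0.05 over all genes tested), beside 22.0% of all tested genes called higher and 18.3% called lower. The median log2 fold change of the members was 0.40, against 0.03 over all tested genes. In 20 members every MI library was above every sham library, which held for 20.9% of all genes, and in 3 every MI library was below, which held for 19.5%. Without the fl/fl-MI 2-labelled library the counts were 19 higher and 7 lower, and the number lower was 2 without any 1 sham library or without CKO-MI 2, since Ldhb and Pfkfb1 then missed the threshold. Over all tested genes the shares called higher and lower both rose without the fl/fl-MI 2-labelled library. The share called lower fell without any 1 sham library or without CKO-MI 2. The deposited FPKM scale carries no TMM factor, and on it the median of all genes was 0.41. There limma called 30 members higher and 1 lower, with a members' median of 0.95. Of all tested genes it called 50.1% higher and 5.97% lower.

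**Figure D1:**
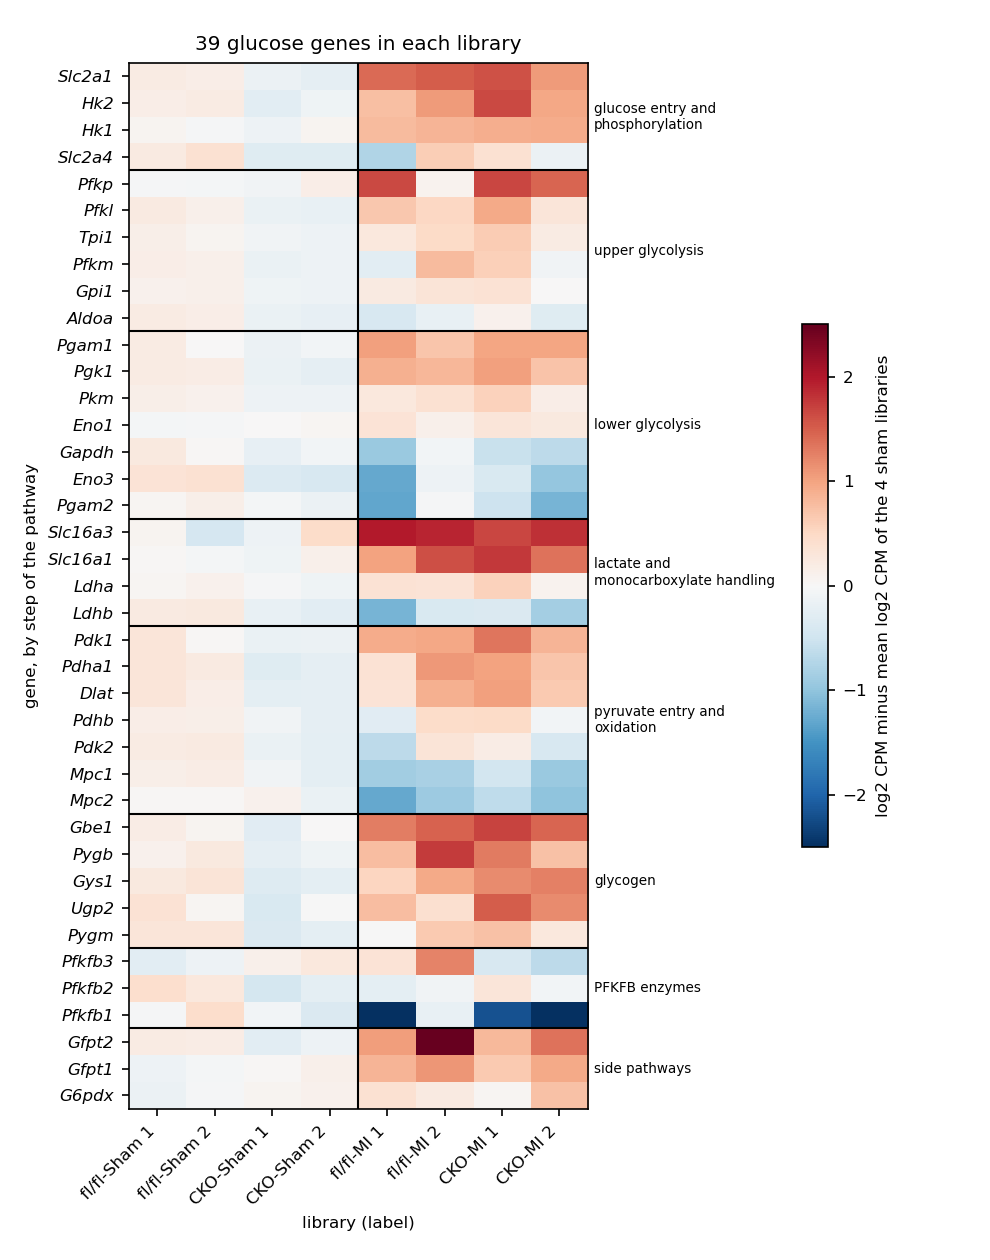
Heat map of the 39 members in the 8 libraries, coloured by log2 CPM minus the mean log2 CPM of the 4 sham libraries, with genes in rows by pathway step and libraries in columns by label. The sham columns are pale in nearly all rows, and Gbe1, Slc2a1, Slc16a1 and Slc16a3 are raised in all 4 MI columns while Mpc1 and Mpc2 are lowered in all 4.

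Promoter sequences of the 3 members with the smallest p among those that rose (Gbe1, Slc2a1 and Slc16a3) and of the 2 with the smallest p among those that fell (Mpc2 and Mpc1) are shown because these 5 genes carry the clearest changes. Each spans 300 bases, from 250 before to 50 after a RefSeq transcription start on GRCm38.p6, written 5′ to 3′ on the gene's strand, and capitals mark ACGTG on either strand, the core of the site bound by hypoxia-inducible factors.
Gbe1 promoter, chr16:70313699-70313998, plus strand: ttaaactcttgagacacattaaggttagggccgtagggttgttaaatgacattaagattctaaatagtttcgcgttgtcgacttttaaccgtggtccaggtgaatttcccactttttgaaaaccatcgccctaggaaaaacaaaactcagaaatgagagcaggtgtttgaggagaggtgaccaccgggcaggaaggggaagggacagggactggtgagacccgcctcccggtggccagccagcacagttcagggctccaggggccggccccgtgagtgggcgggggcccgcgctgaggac
Slc2a1 promoter, chr4:119108495-119108794, plus strand: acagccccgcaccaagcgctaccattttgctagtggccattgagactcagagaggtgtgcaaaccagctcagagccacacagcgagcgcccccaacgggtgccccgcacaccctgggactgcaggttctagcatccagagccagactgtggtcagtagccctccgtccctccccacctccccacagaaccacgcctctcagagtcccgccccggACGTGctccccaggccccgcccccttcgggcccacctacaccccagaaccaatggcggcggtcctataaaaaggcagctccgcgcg
Slc16a3 promoter, chr11:120948817-120949116, plus strand: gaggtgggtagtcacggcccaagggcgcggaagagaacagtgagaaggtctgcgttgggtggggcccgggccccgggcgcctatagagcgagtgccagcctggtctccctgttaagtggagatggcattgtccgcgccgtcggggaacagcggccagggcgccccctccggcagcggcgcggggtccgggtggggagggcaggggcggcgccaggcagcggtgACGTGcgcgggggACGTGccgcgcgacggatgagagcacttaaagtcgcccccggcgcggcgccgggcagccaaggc
Mpc2 promoter, chr1:165461010-165461309, plus strand: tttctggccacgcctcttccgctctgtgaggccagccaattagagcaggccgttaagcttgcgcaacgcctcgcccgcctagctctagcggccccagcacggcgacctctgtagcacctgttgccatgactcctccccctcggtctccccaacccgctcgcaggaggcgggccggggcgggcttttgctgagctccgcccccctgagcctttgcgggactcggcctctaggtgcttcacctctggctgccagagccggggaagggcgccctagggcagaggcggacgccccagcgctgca
Mpc1 promoter, chr17:8283537-8283836, plus strand: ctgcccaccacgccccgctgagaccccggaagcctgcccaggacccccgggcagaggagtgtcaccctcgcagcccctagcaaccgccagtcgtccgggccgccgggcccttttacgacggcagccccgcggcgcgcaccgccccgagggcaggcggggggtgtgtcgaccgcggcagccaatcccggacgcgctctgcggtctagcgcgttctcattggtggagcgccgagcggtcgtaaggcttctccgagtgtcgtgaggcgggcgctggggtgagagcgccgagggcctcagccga

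The Slc2a1 window held ACGTG in 1 place and the Slc16a3 window in 2, while the windows of Gbe1, Mpc2 and Mpc1 held none. RefSeq entries matched 38 of the 39 members, with Slc2a4 left without one. Among these 38, 22 had ACGTG in at least 1 of their listed promoters (57.9%), compared with 29.0% of 10033 tested genes with an entry and 19.6% of all 32851 promoters of the same length. It was present in 11 of the 19 called higher, in 0 of the 4 called lower and in 11 of the other 15. The E-box CACGTG, which contains ACGTG, was found for 6 of the 38 members and 11.6% of the tested genes (7.15% of all promoters), and AAGGTCA, a core of the site of estrogen-related receptors, for 3 members and 3.97% of the tested genes (4.72% of promoters), both searched on both strands. These counts describe letters in the windows and were not tested.

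Glucose entry and phosphorylation rose in 3 of its 4 members (all tested genes, 22.0% called higher). Slc2a1 (ENSMUSG00000028645, chr4:119108711-119137983), which encodes the basal transporter GLUT1, measured 10.8 and 10.6 CPM in fl/fl-Sham, 8.45 and 8.06 in CKO-Sham, 24.96 and 26.7 in fl/fl-MI and 28.4 and 19.7 in CKO-MI. All 4 MI libraries lay above all sham libraries, and the level was 2.65-fold higher. For Slc2a1 the log2 fold change was 1.41, SE 0.14, adjusted p = 0.00091. Slc2a4, for the insulin-responsive transporter GLUT4, measured 140.1 and 157 CPM in fl/fl-Sham, 96.7 and 96.8 in CKO-Sham, 71.4 and 184 in fl/fl-MI and 156 and 108 in CKO-MI. The MI values spanned the sham values, and the difference did not pass the test. For Slc2a4 the log2 fold change was 0.12, SE 0.29, adjusted p = 0.77, and without the fl/fl-MI 2-labelled library it was -0.30 (adjusted p = 0.12). Hk1, the hexokinase of most tissues, was at 105 and 97.8 CPM in fl/fl-Sham, 91.9 and 105 in CKO-Sham, 172 and 179.8 in fl/fl-MI and 188 and 189 in CKO-MI. For Hk1 the log2 fold change was 0.86, SE 0.10, adjusted p = 0.0012. Hk2, the muscle hexokinase, was at 91.9 and 93.2 CPM in fl/fl-Sham, 68.2 and 75.2 in CKO-Sham, 138 and 171 in fl/fl-MI and 254 and 160.1 in CKO-MI. For Hk2 the log2 fold change was 1.13, SE 0.17, adjusted p = 0.0028. Both hexokinases had no overlap between MI and sham libraries.

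In upper glycolysis, from phosphoglucose isomerase to triose phosphate isomerase, 3 of 6 tested members were called higher and none lower (all tested genes, 22.0% and 18.3%). Phosphofructokinase, the step that commits sugar to glycolysis, has a muscle (Pfkm), a liver (Pfkl) and a platelet (Pfkp) isozyme. Pfkm measured 429.8 and 421 CPM in fl/fl-Sham, 342 and 351 in CKO-Sham, 319 and 666 in fl/fl-MI and 583 and 364 in CKO-MI. For Pfkm the log2 fold change was 0.33, SE 0.26, adjusted p = 0.33. It was 0.02 (adjusted p = 0.95) without the fl/fl-MI 2-labelled library, and without the fl/fl-MI 1-labelled library Pfkm was called higher at 0.53 (adjusted p = 0.039). Pfkl, at 76.6 and 71.9 CPM in fl/fl-Sham, 58.8 and 58.3 in CKO-Sham, 104 and 94.7 in fl/fl-MI and 127 and 81.7 in CKO-MI, rose by a log2 fold change of 0.63, SE 0.15, adjusted p = 0.015, a call lost without any 1 sham library (adjusted p up to 0.067). Pfkp stood at 58.3 and 56.9 CPM in fl/fl-Sham, 55.3 and 66.8 in CKO-Sham, 186 and 62.8 in fl/fl-MI and 189 and 163 in CKO-MI. For Pfkp the log2 fold change was 1.32, SE 0.31, adjusted p = 0.015, a call lost without fl/fl-Sham 1, fl/fl-Sham 2 or CKO-Sham 1 (adjusted p up to 0.068). Its value in the fl/fl-MI 2-labelled library sat within the sham range while the other MI libraries were all above it, and without that library the log2 fold change was 1.61 (adjusted p = 9.9e-05). Aldoa, the muscle aldolase, measured 1501 and 1467 CPM in fl/fl-Sham, 1153 and 1129 in CKO-Sham, 992 and 1149 in fl/fl-MI and 1405 and 1055 in CKO-MI. For Aldoa the log2 fold change was -0.18, SE 0.14, adjusted p = 0.34. Aldoa therefore did not pass the test, and on the FPKM scale its sign turned to 0.37 (limma, adjusted p = 0.019). Tpi1, triose phosphate isomerase, ranged over 298 to 359 CPM in sham and 378 to 504 in MI libraries (log2 fold change 0.40, SE 0.13, adjusted p = 0.045). The Tpi1 call was lost in 9 alternatives, namely without any 1 sham library, without fl/fl-MI 2 or CKO-MI 1, with RLE normalization, with TMM factors that leave out mitochondrially encoded genes and with the replicate block (adjusted p up to 0.15). Gpi1, phosphoglucose isomerase, ranged over 312 to 371 CPM in sham and 344 to 435 in MI libraries and was not called (adjusted p = 0.15).

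In lower glycolysis, from glyceraldehyde phosphate dehydrogenase to pyruvate kinase, 2 of 7 members were called higher and none lower. Of all tested genes 22.0% were called higher and 18.3% lower, so the number higher was near the general share. Pgk1, phosphoglycerate kinase, was at 178 and 174 CPM in fl/fl-Sham, 136 and 132 in CKO-Sham, 283 and 271 in fl/fl-MI and 314 and 252 in CKO-MI. The level was 1.82 times the sham level with no overlap. For Pgk1 the log2 fold change was 0.87, SE 0.11, adjusted p = 0.0017. Pgam1, the phosphoglycerate mutase of most tissues, was at 55.7 and 48.3 CPM in fl/fl-Sham, 43.3 and 46.0 in CKO-Sham, 97.9 and 78.0 in fl/fl-MI and 95.9 and 95.2 in CKO-MI. For Pgam1 the log2 fold change was 0.93, SE 0.11, adjusted p = 0.0015. Pgam2, the muscle form, measured 279 and 296 CPM in fl/fl-Sham, 258 and 244 in CKO-Sham, 109.6 and 264 in fl/fl-MI and 188 and 120.1 in CKO-MI. For Pgam2 the log2 fold change was -0.66, SE 0.28, adjusted p = 0.10. Eno3, the muscle enolase, measured 797 and 813 CPM in fl/fl-Sham, 495 and 475 in CKO-Sham, 257 and 570.2 in fl/fl-MI and 480.3 and 318 in CKO-MI. For Eno3 the log2 fold change was -0.62, SE 0.26, adjusted p = 0.099. Neither muscle isozyme passed edgeR's test with all libraries, while DESeq2 called both lower, Pgam2 at -0.67 (adjusted p = 0.041) and Eno3 at -0.63 (adjusted p = 0.040). The fl/fl-MI 2-labelled library lay within the sham range in both, as CKO-MI 1 did for Eno3, and without the former both were called lower, with log2 fold changes of -1.05 (adjusted p = 0.0021) for Pgam2 and -0.96 (adjusted p = 0.0026) for Eno3. Eno1, the enolase of most tissues, measured 111 and 112 CPM in fl/fl-Sham, 114 and 119 in CKO-Sham, 145 and 125 in fl/fl-MI and 141 and 135 in CKO-MI (log2 fold change 0.26, SE 0.10, adjusted p = 0.066), above sham in every MI library, and past edgeR's threshold at 0.31 (adjusted p = 0.020) without that library. DESeq2 called Eno1 with all libraries at 0.25 (adjusted p = 0.041).

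Gapdh, often used as a reference gene, was low in this table, with 8.17 to 12.5 FPKM per library, against a mean of 359 FPKM in sham for Aldoa. It measured 59.5 and 51.3 CPM in fl/fl-Sham, 43.5 and 47.8 in CKO-Sham, 26.4 and 47.7 in fl/fl-MI and 34.1 and 32.0 in CKO-MI (log2 fold change -0.52, SE 0.19, adjusted p = 0.059), and without the fl/fl-MI 2-labelled library it was called lower at -0.77 (adjusted p = 0.00076). Gapdh was also called lower without the fl/fl-MI 1-labelled library (-0.36 (adjusted p = 0.021)), by DESeq2 (-0.54 (adjusted p = 0.029)) and with a mean FPKM filter of at least 5 (-0.60 (adjusted p = 0.028)). Its annotated pseudogenes Gapdh-ps15 and Gapdh-ps16 held 1561 to 3011 and 1242 to 2262 counts per library, beside 2798 to 3951 for Gapdh itself. Protein-coding transcripts held 5.88 to 35.9% of the transcript counts of Gapdh. The Gapdh value is thus uncertain in these counts. For Tpi1 as well, the leading transcript was a retained-intron model, with protein-coding transcripts at 13.3 to 16.4%. For Pfkfb2, described further on, it was a nonsense-mediated decay model, with protein-coding transcripts at 6.77 to 64.7%. Eno1 has a near-identical copy, Eno1b, with 276 to 867 counts per library against 6492 to 15326.

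**Figure D2:**
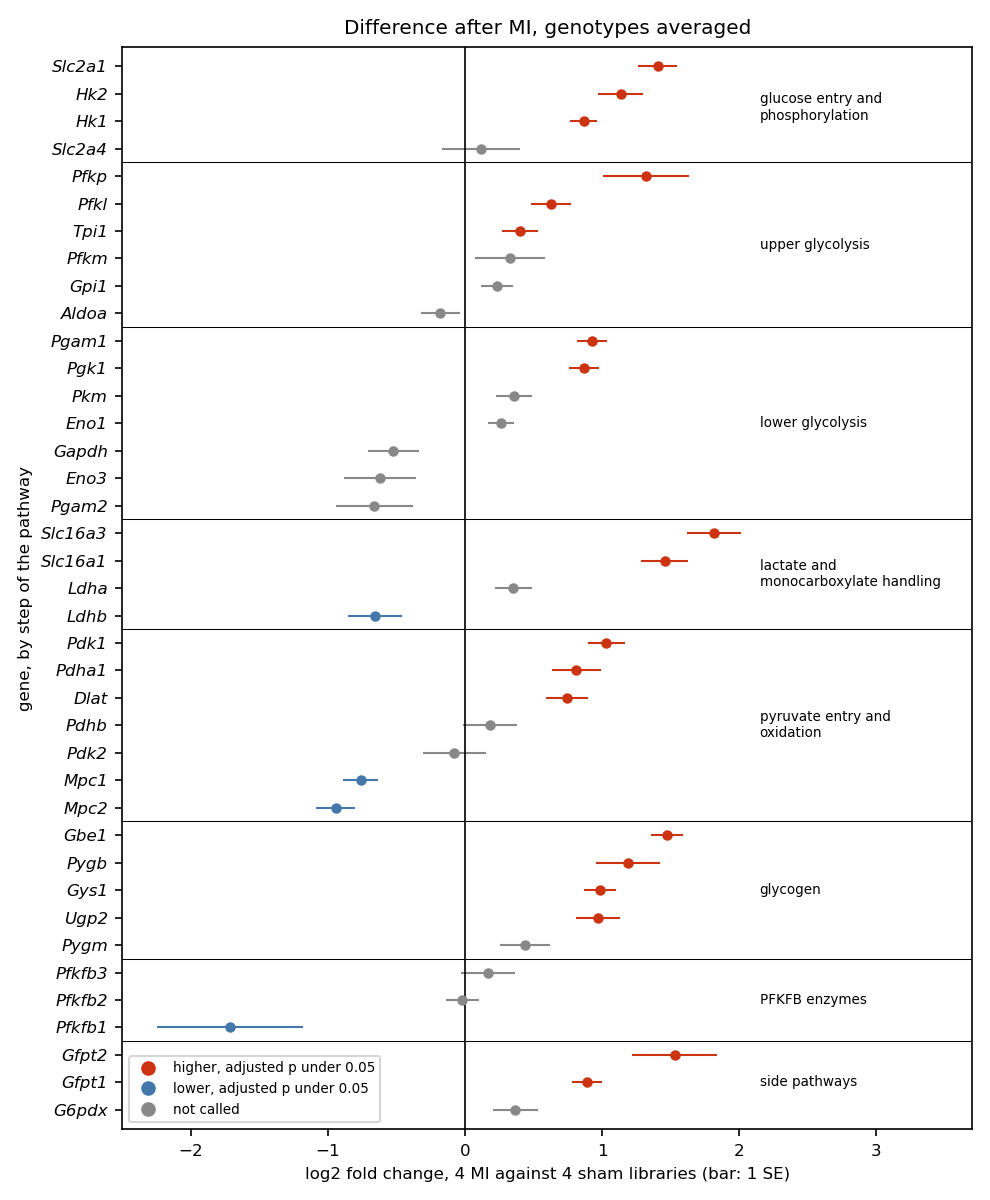
Log2 fold change of each member between 4 MI and 4 sham libraries on the horizontal axis, with bars of 1 SE, genes on the vertical axis by pathway step, red for called higher, blue for called lower and grey for not called. Among the 39 members 19 are red, 4 are blue (Ldhb, Mpc1, Mpc2 and Pfkfb1), and the widest bar belongs to Pfkfb1.

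Pkm, pyruvate kinase of muscle and most other tissues, is spliced with 1 of 2 mutually exclusive exons, which give the PKM1 form of adult muscle and the PKM2 form of fetal and proliferating cells. The exons are printed because the balance between them moved with MI. They lie in the gene ENSMUSG00000032294, chr9:59656368-59679375, were read from GENCODE M21 on GRCm38, and capitals mark bases that differ between them in this alignment without gaps.
PKM1 exon, chr9:59675029-59675195, plus strand: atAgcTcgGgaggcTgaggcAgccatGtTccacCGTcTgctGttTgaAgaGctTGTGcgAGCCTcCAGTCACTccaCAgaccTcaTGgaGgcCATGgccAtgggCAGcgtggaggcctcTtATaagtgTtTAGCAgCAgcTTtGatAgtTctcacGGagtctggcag
PKM2 exon, chr9:59675568-59675734, plus strand: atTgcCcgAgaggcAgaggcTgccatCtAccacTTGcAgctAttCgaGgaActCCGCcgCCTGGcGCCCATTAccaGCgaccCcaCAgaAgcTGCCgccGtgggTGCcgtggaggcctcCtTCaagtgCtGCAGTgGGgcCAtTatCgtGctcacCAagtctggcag
Both are 167 bases long and differ at 64 positions, so that 61.7% of bases are identical.

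As a whole gene Pkm measured 543 and 529.9 CPM in fl/fl-Sham, 451 and 453 in CKO-Sham, 592 and 644 in fl/fl-MI and 736 and 554 in CKO-MI, above sham in every MI library and short of the threshold. For Pkm the log2 fold change was 0.36, SE 0.13, adjusted p = 0.063, and Pkm was called higher by DESeq2 at 0.35 (adjusted p = 0.032) and without CKO-MI 2 at 0.44 (adjusted p = 0.034). Transcripts with the PKM2 exon held 54.0 and 53.9% of the FPKM of the 11 Pkm transcripts in fl/fl-Sham, 61.8 and 56.0% in CKO-Sham, 41.6 and 38.9% in fl/fl-MI and 35.9 and 39.2% in CKO-MI. The share was lower in every MI library than in every sham library, by 17.5 percentage points on average (56.4 ± 3.75% in sham, 38.9 ± 2.34% in MI, SD, n = 4 each, two-sided exact permutation test p = 0.0286, the smallest that 4 against 4 libraries allow). The full-length PKM1 transcript stood at 83.7, 87.8, 59.0 and 67.3 FPKM in the sham and at 195, 189, 231 and 189 FPKM in the MI libraries, a mean 2.70 times as high. The full-length PKM2 transcript stood at 100.3, 105, 98.4 and 88.2 FPKM in the sham and at 143, 124, 132 and 126 FPKM in the MI libraries, 1.34 times as high. On the CPM scale the means changed from 191 to 351 CPM for PKM1 and from 299 to 272 CPM for PKM2, so the direction for PKM2 depends on the scaling while the share does not. The 2 transcript models also differ in length, 2041 bases for PKM1 and 2432 for PKM2, and the authors' quantification divided reads between them.

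**Figure D3:**
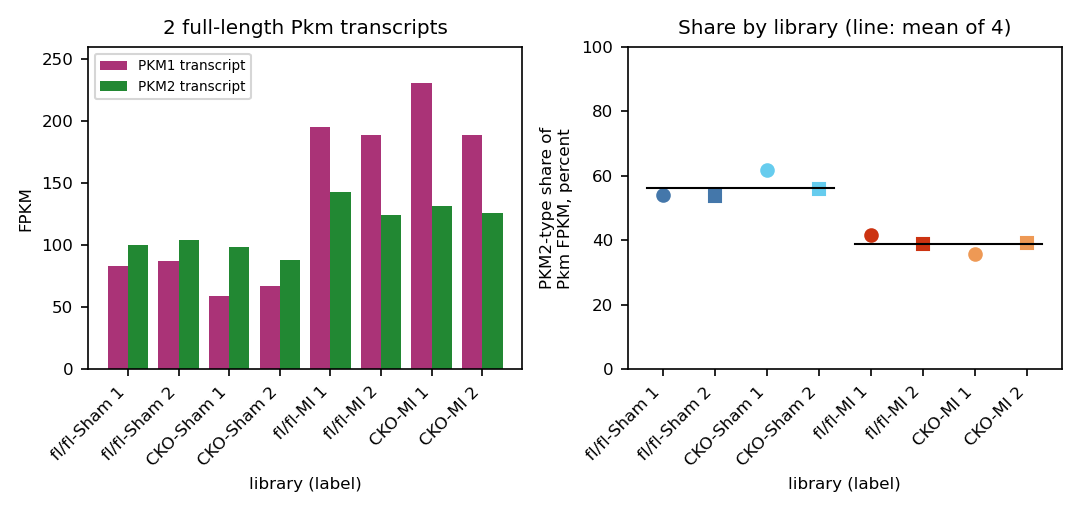
Left, FPKM of the full-length PKM1 and PKM2 transcripts as bars in each library. Right, the share of Pkm FPKM in transcripts with the PKM2 exon, in percent, with 1 point per library and a line at the mean of each set of 4, which falls from 56.4% in sham to 38.9% in MI.

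Lactate and monocarboxylate handling moved in 3 of its 4 members, with 2 called higher and 1 lower (all tested genes, 22.0% and 18.3%). Slc16a1, which encodes the proton-linked lactate and pyruvate carrier MCT1, measured 58.7 and 55.8 CPM in fl/fl-Sham, 53.9 and 62.8 in CKO-Sham, 116 and 176 in fl/fl-MI and 196 and 148 in CKO-MI, 2.74-fold higher after MI. For Slc16a1 the log2 fold change was 1.46, SE 0.17, adjusted p = 0.0013. Slc16a3, for the carrier MCT4 of glycolytic tissues, measured 3.39 and 2.42 CPM in fl/fl-Sham, 2.94 and 4.46 in CKO-Sham, 12.7 and 12 in fl/fl-MI and 10.3 and 11.4 in CKO-MI, 3.53-fold higher. For Slc16a3 the log2 fold change was 1.82, SE 0.20, adjusted p = 0.0011. Both carriers were above sham in all 4 MI libraries, and Slc16a3, with a mean of 0.489 FPKM in sham, was the lowest of the 39 members in the sham libraries. That mean lies under the filter of 0.5, so Slc16a3 passed the filter through its MI values. It was also called higher with no filter on low values. Ldhb, the heart form of lactate dehydrogenase, measured 773 and 785 CPM in fl/fl-Sham, 583 and 552 in CKO-Sham, 296 and 508 in fl/fl-MI and 515 and 369 in CKO-MI. It fell without overlap (log2 fold change -0.66, SE 0.20, adjusted p = 0.037). The Ldhb call was lost without any 1 sham library, without CKO-MI 2 and with the replicate block (edgeR, adjusted p = 0.063). It was also lost on the FPKM scale, at -0.13 (limma, adjusted p = 0.49). Ldha, the form of fast muscle and most other tissues, measured 383 and 399.9 CPM in fl/fl-Sham, 362 and 343 in CKO-Sham, 475 and 473 in fl/fl-MI and 553 and 397 in CKO-MI. For Ldha the log2 fold change was 0.35, SE 0.13, adjusted p = 0.074, and Ldha was called higher by DESeq2 at 0.34 (adjusted p = 0.048) and without CKO-MI 2 at 0.45 (adjusted p = 0.029).

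Both genes of pyruvate entry into mitochondria fell, and 3 of 5 genes of its oxidation and of the kinases that control it rose. Of all tested genes 18.3% were called lower and 22.0% higher. Mpc1 (ENSMUSG00000023861, chr17:8282904-8297661), 1 of the 2 subunits of the mitochondrial pyruvate carrier, measured 142 and 145 CPM in fl/fl-Sham, 119 and 107 in CKO-Sham, 69.5 and 72.5 in fl/fl-MI and 93.1 and 66.7 in CKO-MI. For Mpc1 the log2 fold change was -0.76, SE 0.13, adjusted p = 0.0046. Mpc2 (ENSMUSG00000026568, chr1:165460637-165481214), the partner subunit, measured 128 and 127 CPM in fl/fl-Sham, 134 and 111 in CKO-Sham, 51.4 and 66.9 in fl/fl-MI and 80.8 and 62.0 in CKO-MI. For Mpc2 the log2 fold change was -0.94, SE 0.14, adjusted p = 0.0031. Both subunits were below sham in all 4 MI libraries, at 0.590 and 0.520 of the sham level. Only Mpc2 of the pair was called on the FPKM scale, where log2 fold changes were -0.20 for Mpc1 and -0.36 for Mpc2 against the median of 0.41 over all genes. Pdha1, of the first enzyme of the pyruvate dehydrogenase complex, ranged over 321 to 482 CPM in sham and 507 to 833 in MI libraries (log2 fold change 0.81, SE 0.18, adjusted p = 0.012), a call lost without fl/fl-Sham 2 or CKO-Sham 1 (adjusted p up to 0.059). Dlat, the acetyltransferase core, ranged over 113 to 165 CPM in sham and 169 to 271 in MI libraries. For Dlat the log2 fold change was 0.74, SE 0.16, adjusted p = 0.0099, a call lost without fl/fl-Sham 2 (adjusted p = 0.052). Pdhb, the partner of Pdha1, ranged over 221 to 288 CPM in sham and 212 to 359 in MI libraries and was not called (log2 fold change 0.18, SE 0.20, adjusted p = 0.49), with -0.03 (adjusted p = 0.90) without the fl/fl-MI 2-labelled library. Pdk1, a kinase that switches the complex off, measured 88.03 and 73.4 CPM in fl/fl-Sham, 63.8 and 64.4 in CKO-Sham, 137 and 141 in fl/fl-MI and 182 and 129 in CKO-MI and rose 2.04-fold. For Pdk1 the log2 fold change was 1.03, SE 0.14, adjusted p = 0.0019. Pdk2, the more abundant kinase per length here, measured 203 and 204 CPM in fl/fl-Sham, 156 and 147 in CKO-Sham, 112 and 221 in fl/fl-MI and 199 and 133 in CKO-MI. For Pdk2 the log2 fold change was -0.08, SE 0.23, adjusted p = 0.81, and without the fl/fl-MI 2-labelled library it was -0.36 (adjusted p = 0.082).

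Glycogen genes were called higher in 4 of 5 members and none was lower. Gbe1 (ENSMUSG00000022707, chr16:70313949-70569716), the branching enzyme, had the smallest p of all members and measured 21.6 and 19.9 CPM in fl/fl-Sham, 15.6 and 19.1 in CKO-Sham, 45.7 and 52.9 in fl/fl-MI and 60.7 and 51.6 in CKO-MI, 2.77-fold higher. For Gbe1 the log2 fold change was 1.47, SE 0.12, adjusted p = 0.00059. Gys1, muscle glycogen synthase, measured 45.1 and 47.9 CPM in fl/fl-Sham, 30.6 and 32.5 in CKO-Sham, 55.3 and 73.3 in fl/fl-MI and 87.2 and 91.6 in CKO-MI. For Gys1 the log2 fold change was 0.99, SE 0.12, adjusted p = 0.0013. Ugp2, which makes the UDP-glucose used by glycogen synthase, measured 140.2 and 113 CPM in fl/fl-Sham, 83.9 and 109 in CKO-Sham, 188 and 144 in fl/fl-MI and 315 and 250.2 in CKO-MI. For Ugp2 the log2 fold change was 0.97, SE 0.16, adjusted p = 0.0043. Genes of synthesis therefore rose in all 3 cases without overlap. Of the phosphorylases that break glycogen down, Pygb, the brain form, measured 223 and 245 CPM in fl/fl-Sham, 177 and 193 in CKO-Sham, 352 and 694 in fl/fl-MI and 512 and 347 in CKO-MI. For Pygb the log2 fold change was 1.19, SE 0.24, adjusted p = 0.0083. Pygm, the muscle form, measured 421 and 417 CPM in fl/fl-Sham, 265 and 286 in CKO-Sham, 336 and 536 in fl/fl-MI and 565 and 408 in CKO-MI. For Pygm the log2 fold change was 0.44, SE 0.18, adjusted p = 0.097. It was 0.25 (adjusted p = 0.17) without the fl/fl-MI 2-labelled library, and without the fl/fl-MI 1-labelled library Pygm was called higher at 0.57 (adjusted p = 0.014).

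The bifunctional PFKFB enzymes set the level of a fructose bisphosphate that activates phosphofructokinase. Pfkfb1, the liver and muscle form, measured 10.03 and 13.9 CPM in fl/fl-Sham, 9.77 and 7.96 in CKO-Sham, 1.34 and 8.92 in fl/fl-MI and 2.24 and 1.60 in CKO-MI. It was called lower (log2 fold change -1.72, SE 0.53, adjusted p = 0.038), a call lost when any 1 sham or CKO-MI library was left out. The Pfkfb1 call was also lost with genotype ignored (edgeR, adjusted p = 0.056) and with limma on log2(FPKM + 1) (-0.71, adjusted p = 0.053). The fl/fl-MI 2-labelled library stood within the sham range, and without that library the log2 fold change was -2.68 (adjusted p = 0.00018). Pfkfb2, the heart form, measured 84.3 and 76.2 CPM in fl/fl-Sham, 46.4 and 53.5 in CKO-Sham, 53.3 and 59.5 in fl/fl-MI and 77.7 and 60.5 in CKO-MI, with no difference past the threshold when genotypes were averaged (log2 fold change -0.02, SE 0.12, adjusted p = 0.90) and a positive value on the FPKM scale (0.48, limma adjusted p = 0.0052). Without the fl/fl-MI 2-labelled library the Pfkfb2 value was -0.06. Most of the Pfkfb2 transcript counts lay in models that code for no protein in at least 1 library. Pfkfb3, the inducible form, measured 19.5 and 21.4 CPM in fl/fl-Sham, 25.4 and 28.1 in CKO-Sham, 29.6 and 55.3 in fl/fl-MI and 17.8 and 14.8 in CKO-MI. For Pfkfb3 the log2 fold change was 0.17, SE 0.20, adjusted p = 0.52. It was -0.09 (adjusted p = 0.52) without the fl/fl-MI 2-labelled library, and without the fl/fl-MI 1-labelled library Pfkfb3 was called higher at 0.34 (adjusted p = 0.033). Both fl/fl-MI values lay above every sham value and both CKO-MI values below. In the branches off glycolysis, Gfpt1, the first enzyme of hexosamine synthesis, measured 22.7 and 23.9 CPM in fl/fl-Sham, 25.1 and 27.1 in CKO-Sham, 44.3 and 52.8 in fl/fl-MI and 38.6 and 47.4 in CKO-MI. For Gfpt1 the log2 fold change was 0.89, SE 0.11, adjusted p = 0.0016. Gfpt2, its isozyme, measured 35.0 and 34.8 CPM in fl/fl-Sham, 25.4 and 27.9 in CKO-Sham, 62.5 and 174 in fl/fl-MI and 53.5 and 78.0 in CKO-MI (log2 fold change 1.53, SE 0.31, adjusted p = 0.0087), with its highest value in the fl/fl-MI 2-labelled library and a log2 fold change of 1.07 (adjusted p = 0.00076) without it. G6pdx, the entry enzyme of the pentose phosphate pathway, ranged over 13.5 to 16.1 CPM in sham and 15.5 to 24.8 in MI libraries and was not called (adjusted p = 0.11), while without CKO-MI 1 it was called higher at 0.49 (adjusted p = 0.028).

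Apart from the pseudocount, ratios between isozymes within a library do not depend on how libraries are scaled, and 13 pairs were compared as log2 ratios of FPKM + 0.1. In 5 of 13 pairs every MI library was above every sham library, and in 0 every MI library was below. Of all tested single genes 20.9% were above in this way and 19.5% below, and no such share was taken over other gene pairs. These 5 were Pgam1/Pgam2, Slc2a1/Slc2a4, Pdk1/Pdk2, Ldha/Ldhb and Pygb/Pygm, each with a two-sided exact permutation p = 0.0286, the smallest that 4 against 4 libraries allow, and 0.0743 after Benjamini-Hochberg adjustment over the 13 pairs. Pgam1/Pgam2 took log2 ratios of -3.56, -3.85, -3.81 and -3.64 in the sham and -1.40, -3.00, -2.21 and -1.57 in the MI libraries. Pgam1 thus made up 6.47 to 7.81% in sham and 11.1 to 27.5% in MI libraries of the summed FPKM of the pair. For Slc2a1/Slc2a4 the log2 ratios were -3.65, -3.85, -3.46 and -3.53 in the sham and -1.52, -2.78, -2.46 and -2.45 in the MI libraries. The share of Slc2a1 in its pair was 6.27 to 7.97% in sham and 12.6 to 25.8% in MI libraries. Ldha/Ldhb gave -2.09, -2.05, -1.76 and -1.76 in the sham and -0.40, -1.18, -0.97 and -0.97 in the MI libraries. Ldha made up 19.0 to 22.8% in sham and 30.6 to 43.2% in MI libraries, so by FPKM Ldhb stayed the larger of the pair in every library. By CPM, which is not scaled to gene length, Ldha was above Ldhb in fl/fl-MI 1, CKO-MI 1 and CKO-MI 2. Which of the pair is larger in the MI libraries thus depends on the measure.

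Pdk1/Pdk2 gave log2 ratios of -2.49, -2.76, -2.57 and -2.47 in the sham and -1.0, -1.94, -1.43 and -1.33 in the MI libraries, and Pdk1 made up 12.8 to 15.1% in sham and 20.6 to 33.3% in MI libraries. Pygb/Pygm gave -1.50, -1.34, -1.16 and -1.15 in the sham and -0.51, -0.21, -0.72 and -0.81 in the MI libraries, and Pygb made up 26.1 to 31.1% in sham and 36.3 to 46.4% in MI libraries. In all 5 pairs the mean difference was positive within the fl/fl labels and within the CKO labels, from 0.39 (Pygb/Pygm in CKO) to 1.83 (Pgam1/Pgam2 in CKO). The remaining 8 pairs overlapped between MI and sham libraries, with mean differences from -1.83 for Pfkfb1/Pfkfb2 to 0.95 for Eno1/Eno3. Without the fl/fl-MI 2-labelled library the number of pairs without overlap was 9, since Eno1/Eno3, Pfkl/Pfkm, Pfkp/Pfkm and Pfkfb1/Pfkfb2 then separated as well. Hk1/Hk2 (-0.25), Slc16a3/Slc16a1 (0.20), Gfpt2/Gfpt1 (0.56) and Pfkfb3/Pfkfb2 (0.15) overlapped with and without it, given as mean log2 ratio in MI minus sham.

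**Figure D4:**
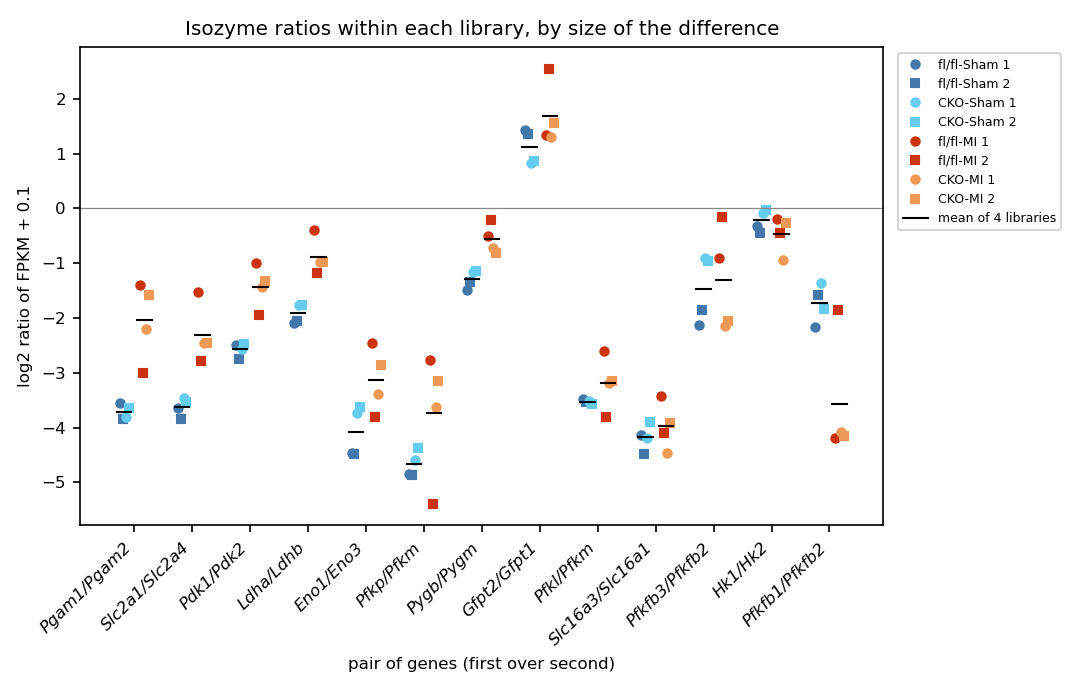
Log2 ratio of FPKM + 0.1 for 13 pairs of genes, with 1 point per library coloured by group label, circles for replicate 1, squares for replicate 2 and lines at the mean of 4 libraries, pairs ordered by the difference. The MI points of Pgam1/Pgam2, Slc2a1/Slc2a4, Pdk1/Pdk2, Ldha/Ldhb and Pygb/Pygm all lie above the sham points, and in Eno1/Eno3, Pfkl/Pfkm, Pfkp/Pfkm and Pfkfb1/Pfkfb2 fl/fl-MI 2 is the MI library that lies among the sham points or on their far side.

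Within genotypes, with 2 MI against 2 sham libraries and the spread shared over all groups, 11 members were called higher and 2 lower in fl/fl (all tested genes, 10.1% higher and 8.45% lower), and 17 higher and 1 lower in CKO (12.8% and 11.9%). The 2 that fell in fl/fl were Mpc1 (log2 fold change -1.02, SE 0.18, adjusted p = 0.014) and Mpc2 (log2 fold change -1.10, SE 0.20, adjusted p = 0.014), and Mpc2 was the 1 that fell in CKO (log2 fold change -0.78, SE 0.20, adjusted p = 0.031). Gbe1 rose in both, by 1.25 in fl/fl and 1.70 in CKO on the log2 scale. These counts depend on single libraries. In each fit given next, the share of all tested genes called in the same direction rose or fell with the count of members. In fl/fl they were 0 and 0 without fl/fl-Sham 1 or without fl/fl-Sham 2, 6 higher without CKO-Sham 1 or without CKO-Sham 2, and 9 lower without the fl/fl-MI 2-labelled library. In CKO the number higher was 0 without CKO-Sham 1 and 7 without CKO-Sham 2, and the number lower was 0 without any 1 sham library or without CKO-MI 2, 5 without fl/fl-MI 1 and 6 without the fl/fl-MI 2-labelled library. Whether the response differed between genotypes is asked by the interaction test, for which edgeR called 0 members (all tested genes, 0.0% in both directions), and at an unadjusted p under 0.05 4 members were higher in CKO and 1 lower, beside 3.55% and 4.94% of all genes. The median interaction of the members was 0.34, with 31 of 39 positive, against -0.02 for all genes. With 1 library left out, this median ranged from 0.13 without CKO-MI 1 to 0.56 without CKO-MI 2. The fatty acid oxidation genes compared further on had a median interaction of 0.67, with 23 of 24 positive. DESeq2 called 1 member higher and 1 lower (all genes, 0.428% higher and 0.499% lower) and limma called 0. Without the fl/fl-MI 1-labelled library edgeR called 2 higher (Gys1 and Pfkp) and 1 lower (Pfkfb3), beside 2.28% higher and 3.07% lower of all genes, so the setting raised the calls over all genes as well.

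Comparing CKO-MI-labelled with fl/fl-MI-labelled libraries, edgeR called 0 members at an adjusted p under 0.05, and 0.0% of all genes in both directions. At an unadjusted p under 0.05, 2 members were higher and 1 lower (3.07% and 5.24% of all genes), DESeq2 called 1 lower (all genes, 0.478% higher and 1.03% lower) and limma called 0. Pfkfb3, whose values stand above, was lower in both CKO-MI libraries than in both fl/fl-MI libraries (log2 fold change -1.38, SE 0.28, adjusted p = 0.45), and it was the 1 member called by DESeq2 (-1.36, adjusted p = 0.0045). Ugp2 (log2 fold change 0.77, SE 0.23, adjusted p = 0.55) and Gys1 (log2 fold change 0.47, SE 0.16, adjusted p = 0.56) were higher in both CKO-MI libraries than in both fl/fl-MI libraries. Since the Esr1 level of the fl/fl-MI 2-labelled library goes against its label, the contrast was also taken without each fl/fl-MI library. Without the fl/fl-MI 2-labelled library edgeR called 0 members, beside 0.0143% higher and 0.178% lower of all genes. Without the fl/fl-MI 1-labelled library it called 2 higher (Pfkp and Ugp2) and 3 lower (Gfpt2, Pfkfb1 and Pfkfb3), named here after their values were seen, beside 5.90% higher and 6.04% lower of all genes. In that fit 1 library stands for the fl/fl-MI group.

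In the sham hearts edgeR again called 0 members when CKO-Sham-labelled were compared with fl/fl-Sham-labelled libraries (all tested genes, 0.0% higher and 0.00713% lower). At an unadjusted p under 0.05, 0 members were higher and 3 lower, beside 1.89% and 2.0% of all genes, and DESeq2 and limma called 0. The 3 were Pfkfb2 (log2 fold change -0.68, SE 0.17, adjusted p = 1.0), Gys1 (log2 fold change -0.56, SE 0.16, adjusted p = 1.0) and Pgk1 (log2 fold change -0.39, SE 0.16, adjusted p = 1.0). Of the 39 members 32 had a negative value, with a median of -0.33 against 0.00 for all genes. Of the 24 fatty acid oxidation genes compared further on, 22 had a negative value, with a median of -0.34. A fit of the 4 sham libraries alone, which estimates its spread from these libraries only, called 5 members lower, namely Eno3, Pdha1, Pfkfb2, Pygm and Slc2a4, and 0 higher, beside 0.435% higher and 0.741% lower of all genes. For the interaction the 3 smallest p belonged to Gys1 (log2 difference 1.03, SE 0.23, adjusted p = 0.56), Pfkfb3 (log2 difference -1.77, SE 0.40, adjusted p = 0.56) and Pfkfb2 (log2 difference 0.98, SE 0.24, adjusted p = 0.56). DESeq2 called Gys1 and Pfkfb3 for it, with adjusted p values of 0.032 and 0.020.

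**Figure D5:**
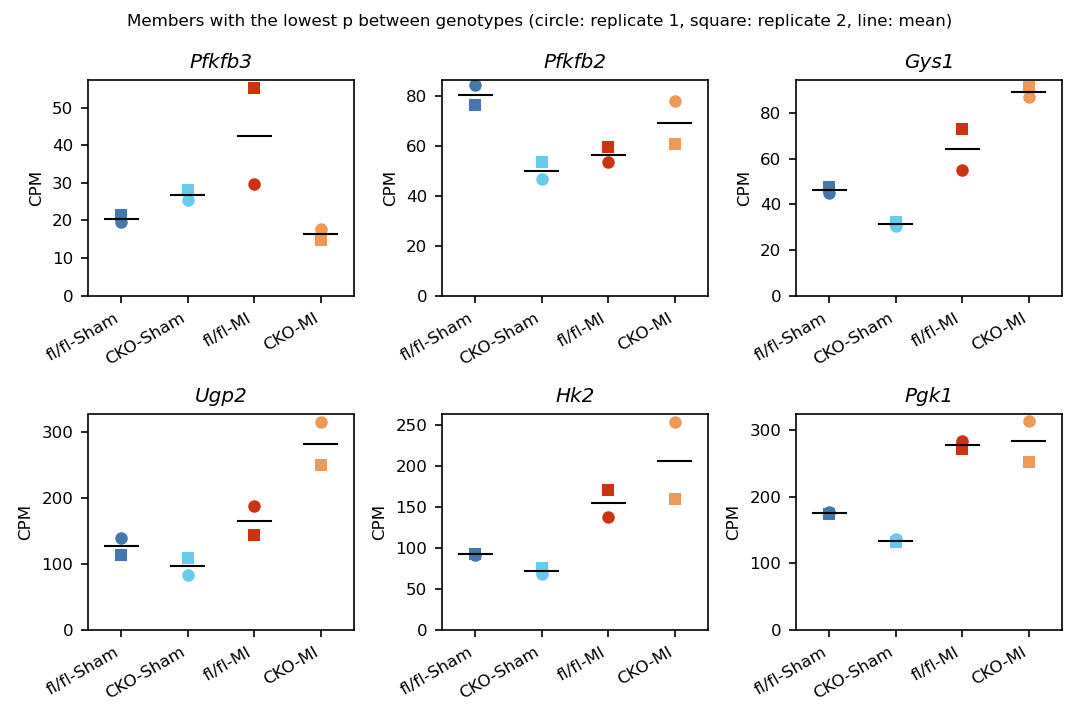
CPM of 6 members by group label, with 1 point per library (circle for replicate 1, square for replicate 2) and a line at the mean of 2 libraries, vertical axes from 0. Pfkfb3 is highest in fl/fl-MI and lowest in CKO-MI, Pfkfb2 is highest in fl/fl-Sham, and Gys1 and Ugp2 are highest in CKO-MI.

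Markers of other cell types of the tissue moved with MI as well. Of 10 fibroblast markers 9 were called higher and none lower, and their summed level was 1607 to 1798 CPM in sham and 2666 to 7285 CPM in MI libraries, lowest of the MI libraries in the one labelled fl/fl-MI 2 and highest in fl/fl-MI 1. Of 8 endothelial markers 7 were called lower (summed 1772 to 2167 CPM in sham, 643 to 1058 in MI). Of 10 macrophage markers 3 were called higher (summed 510.5 to 577 and 485 to 1210.0 CPM). Of 5 erythroid markers 5 were called higher with overlapping sums (79.7 to 551 and 272 to 753 CPM). Of 5 atrial markers 1 was called higher (Nppa), with sums of 135 to 594 CPM in sham and 2547 to 19857 CPM in MI. Of 12 cardiomyocyte markers 4 were called higher and 3 lower. Of 6 smooth muscle markers 1 was lower (summed 1356 to 1697 CPM in sham, 1373 to 2447 in MI). Of 6 adipocyte markers 1 was lower, while their sum did not overlap (895 to 1467 CPM in sham, 316 to 428 in MI). Of all tested genes 22.0% were called higher and 18.3% lower, which stands beside each marker count here. Of the lymphocyte markers only 2 of 8 were tested and 0 called (0 at an unadjusted p under 0.05). Of 10 skeletal muscle markers 4 were tested and 1 (Ckm) called lower, with Myh1, Myh2, Myh4 and Tnnc2 at 0 in at least 1 library. In these bulk libraries fewer cells of a type and less RNA per cell cannot be told apart, and the part that the mixture of cell types plays in the glucose genes was not tested.

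Genes of the same pathways outside the 39 were read from lists that were chosen with earlier results of these data known. Over all lists 46 of 104 tested genes were called higher and 10 lower after MI, with a median log2 fold change of 0.45. Of all tested genes 22.0% were called higher and 18.3% lower. These shares stand beside each list count below, and no list was tested as a set. The number higher was 26 without CKO-Sham 1 and 27 without fl/fl-Sham 2, and the number lower was 6 and 5 without these and 20 without the fl/fl-MI 2-labelled library. Over all tested genes the shares also fell without either of these sham libraries and rose without fl/fl-MI 2. Of the other glycogen genes, 14 of 20 tested members were called higher and 2 lower. Ppp1r3a, which brings a phosphatase to glycogen in muscle, ranged over 30.8 to 67.9 CPM in sham and 92.6 to 176 in MI libraries (log2 fold change 1.56, SE 0.13, adjusted p = 0.00061). Stbd1, a glycogen-binding protein, ranged over 6.08 to 6.26 CPM in sham and 16.7 to 26.9 in MI libraries (log2 fold change 1.68, SE 0.15, adjusted p = 0.00073). The 2 that fell, Phkg2 and Phka2, encode subunits of liver phosphorylase kinase. Phkg2 ranged over 18.6 to 22.4 CPM in sham and 11.9 to 16.4 in MI libraries (log2 fold change -0.57, SE 0.11, adjusted p = 0.0081). Phka2 ranged over 22.4 to 24.8 CPM in sham and 14.0 to 23.2 in MI libraries (log2 fold change -0.47, SE 0.13, adjusted p = 0.026). Of the other pyruvate dehydrogenase genes, 5 of 8 tested members were called higher and 0 lower. Pdpr, a regulatory subunit of the phosphatase that switches the complex on, ranged over 8.94 to 12.9 CPM in sham and 41.5 to 56.4 in MI libraries (log2 fold change 2.18, SE 0.14, adjusted p = 0.00040). Pdk4, the kinase induced by fasting, ranged over 76.0 to 125 CPM in sham and 202 to 1201 in MI libraries (log2 fold change 2.48, SE 0.47, adjusted p = 0.0069). Its lowest MI library still lay above its highest sham library.

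Among genes of insulin signalling and GLUT4 traffic, 8 of 14 tested members were called higher and 0 lower (all tested genes, 22.0% and 18.3%). Lnpep, a cargo of GLUT4 vesicles, ranged over 65.5 to 74.2 CPM in sham and 139 to 163 in MI libraries (log2 fold change 1.09, SE 0.10, adjusted p = 0.00075). Prkaa2, the muscle catalytic subunit of the AMP-activated kinase, ranged over 22.1 to 44.1 CPM in sham and 76.7 to 129 in MI libraries (log2 fold change 1.77, SE 0.20, adjusted p = 0.0012). Among transcriptional regulators of glucose genes, 7 of 17 tested members were called higher and 2 lower. Egln3, a prolyl hydroxylase of hypoxia-inducible factors and also their target, ranged over 15.7 to 19.5 CPM in sham and 29.9 to 76.9 in MI libraries (log2 fold change 1.5, SE 0.16, adjusted p = 0.0011). Ppara, a receptor that drives fatty acid oxidation, ranged over 2.34 to 5.12 CPM in sham and 10.97 to 19.9 in MI libraries (log2 fold change 2.11, SE 0.23, adjusted p = 0.0011). The 2 that fell were Epas1 and Mlxipl. Epas1, a hypoxia-inducible factor abundant in endothelial cells, ranged over 388 to 482 CPM in sham and 121 to 205 in MI libraries (log2 fold change -1.35, SE 0.17, adjusted p = 0.0016). Mlxipl, a carbohydrate-responsive factor, ranged over 26.0 to 41.7 CPM in sham and 10.3 to 24.0 in MI libraries (log2 fold change -0.85, SE 0.19, adjusted p = 0.012). Epas1 fell together with 7 of 8 endothelial markers.

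Among the other glycolytic isozymes, 3 of 10 tested members were called higher and 2 lower, near the shares over all tested genes (22.0% and 18.3%). Minpp1, a phosphatase that also acts on bisphosphoglycerate, ranged over 7.78 to 9.05 CPM in sham and 15.0 to 17.7 in MI libraries (log2 fold change 0.91, SE 0.12, adjusted p = 0.0021). Tigar, a fructose bisphosphatase, ranged over 22.5 to 29.2 CPM in sham and 29.9 to 54.8 in MI libraries (log2 fold change 0.67, SE 0.14, adjusted p = 0.0091). Among those called lower, Fbp2, the muscle fructose bisphosphatase, ranged over 17.1 to 20.6 CPM in sham and 1.76 to 7.88 in MI libraries (log2 fold change -1.99, SE 0.42, adjusted p = 0.010). In the pentose phosphate list, 2 of 7 tested members were called higher and 2 lower, also near those shares. Of its oxidative enzymes, H6pd ranged over 25.7 to 34.2 CPM in sham and 47.1 to 80.4 in MI libraries (log2 fold change 1.14, SE 0.20, adjusted p = 0.0053). Pgd ranged over 30.4 to 35.2 CPM in sham and 41.3 to 46.4 in MI libraries (log2 fold change 0.35, SE 0.09, adjusted p = 0.024). Pgls, the lactonase of the same branch, ranged over 29.0 to 41.7 CPM in sham and 20.5 to 21.6 in MI libraries (log2 fold change -0.70, SE 0.09, adjusted p = 0.0017). Tkt, the transketolase of the non-oxidative branch, ranged over 50.1 to 55.0 CPM in sham and 33.1 to 43.1 in MI libraries (log2 fold change -0.45, SE 0.10, adjusted p = 0.011). Members of both branches were thus lower, while those called higher were oxidative. In the hexosamine list, 2 of 5 tested members were called higher and 0 lower, both enzymes downstream of Gfpt1 and Gfpt2. Uap1 ranged over 38.7 to 41.0 CPM in sham and 67.0 to 93.6 in MI libraries (log2 fold change 1.04, SE 0.13, adjusted p = 0.0017). Pgm3 ranged over 3.45 to 4.62 CPM in sham and 5.14 to 11.3 in MI libraries (log2 fold change 0.89, SE 0.24, adjusted p = 0.025).

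Of 4 tested other monocarboxylate genes 1 was called higher and 1 lower, near the shares over all tested genes (22.0% and 18.3%). Both are carrier chaperones. Emb, embigin, ranged over 4.45 to 7.40 CPM in sham and 9.27 to 14.2 in MI libraries (log2 fold change 1.10, SE 0.21, adjusted p = 0.0070). Bsg, the partner of MCT1 and MCT4, ranged over 631 to 721 CPM in sham and 326 to 497 in MI libraries (log2 fold change -0.65, SE 0.17, adjusted p = 0.022), and so moved opposite to Slc16a1 and Slc16a3. In the NADH shuttle list, 4 of 10 tested members were called higher and 0 lower. Slc25a13, an aspartate-glutamate carrier, ranged over 33.0 to 48.2 CPM in sham and 45.2 to 83.1 in MI libraries (log2 fold change 0.77, SE 0.15, adjusted p = 0.0072). Gpd1l, a glycerol phosphate dehydrogenase relative, ranged over 31.9 to 37.6 CPM in sham and 39.6 to 55.9 in MI libraries (log2 fold change 0.50, SE 0.13, adjusted p = 0.020). In the polyol list 0 of 3 tested members were called higher and 1 lower. The latter was Khk, ketohexokinase, at 10.6 to 12.3 CPM in sham and 4.48 to 8.07 in MI libraries (log2 fold change -1.04, SE 0.21, adjusted p = 0.0081). Of the other glucose entry and hexokinase genes 0 of 6 tested were called, with 2 higher and 0 lower at an unadjusted p under 0.05. For comparison, of 24 fatty acid oxidation genes 1 was called higher and 6 lower. Acsl1, which activates fatty acids, stood at 183 to 319.6 CPM in sham and 249 to 491 in MI libraries (log2 fold change 0.73, SE 0.20, adjusted p = 0.024). Etfb, an electron carrier of fatty acid oxidation, ranged over 406 to 516 CPM in sham and 93.2 to 199.7 in MI libraries (log2 fold change -1.68, SE 0.26, adjusted p = 0.0033). Cd36, a fatty acid transporter, ranged over 1526 to 1817 CPM in sham and 670.2 to 1298 in MI libraries (log2 fold change -0.83, SE 0.14, adjusted p = 0.0042). The median of that list was -0.11, set beside 0.40 for the 39 glucose genes and 0.03 for all genes, and the difference between the lists was not tested. Within genotypes its median was -0.43 in fl/fl, with 21 of 24 genes negative, and 0.19 in CKO, with 15 of 24 positive. For the interaction edgeR called 0 of these 24 genes. At an unadjusted p under 0.05, 6 were positive and 0 negative, beside 3.55% and 4.94% of all tested genes. The difference was not tested for the list as a whole.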

How the data were processed

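Gene expression was measured by paired-end sequencing of poly(A) RNA from 8 libraries in 4 groups of 2, grouped by the sample titles. The authors deposited a gene table and a transcript table with read counts and FPKM per library. Adapters were removed with cutadapt 1.9, per the labels, with FastQC as quality check, and the aligner, the counting tool and the genome build are not given in the sources used here. Low counts lay mostly at multiples of 4, as if each read pair had added 4, and each library held 73821747 to 88117573 counts (18455437 to 22029393 pairs on that reading). All 39 member identifiers were found in GENCODE M21 (GRCm38), 33 of them with the same start and end.

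Of 33249 genes, the 14028 whose FPKM averaged 0.5 or more were tested with edgeR 4.0.16 (R 4.3.3) on the deposited counts, with TMM scaling, 1 mean per group, quasi-likelihood tests of 6 contrasts and Benjamini-Hochberg adjustment over all tested genes. A standard error is the absolute log2 fold change divided by the square root of F. DESeq2 1.42.0, limma 3.58.1 on log2(FPKM + 1) and log2(FPKM + 0.1), other filters and scalings, a replicate block and fits without each library were alternatives. Isozyme ratios and Pkm transcript shares used exact two-sided permutation tests over libraries (SciPy 1.17.1, pandas 2.3.3, Python 3.11.15). The edgeR step was tested on simulated data. Values in every library are given for isozyme pairs, Gapdh, Pkm, Aldoa, Mpc1, the 6 members with the smallest p in each direction after MI and the 3 with the smallest p in each genotype contrast. Of each other pathway list, called genes with the 2 smallest p in each direction are named, apart from 1 gene that is not reported here. The members and lists were chosen with earlier results of these data known.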

Additional observations from a re-analysis of the deposited data

Results flagged for a closer look

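Values stand out here because both libraries of one genotype label moved one way after MI and both libraries of the other label moved the opposite way. For Pfkfb2 the interaction was 0.98 on the log2 scale (SE 0.24, adjusted p = 0.56 by edgeR). Both fl/fl-MI libraries lay below both fl/fl-Sham libraries, and both CKO-MI libraries above both CKO-Sham libraries. Protein-coding transcripts held 6.77 to 64.7% of the Pfkfb2 transcript counts. For Pfkfb3 the interaction was -1.77 (SE 0.40, adjusted p = 0.56 by edgeR), with both fl/fl-MI libraries above and both CKO-MI libraries below their sham libraries. The log2 ratio of Pfkfb3 to Pfkfb2 differed between MI and sham by 1.46 within fl/fl and by -1.16 within CKO on average, a difference of -2.62 that was not tested. These values rest on 2 libraries per group, and the Esr1 level goes against the labels of both CKO-Sham libraries and of fl/fl-MI 2.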

How the results depend on the processing

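Mpc2 was called lower under every alternative tried for the contrast averaged over genotypes, and the 23 members called by edgeR kept their direction throughout. The sign of 7 that were not called (Aldoa, Gapdh, Pdhb, Pdk2, Pfkfb2, Pfkfb3 and Slc2a4) turned under at least 1 alternative. With DESeq2 7 members were lower after MI (all tested genes, 21.7%). On log2(FPKM + 1) limma called 30 higher and 1 lower (all tested genes, 50.1% and 5.97%), and on log2(FPKM + 0.1) 30 and 2 (50.8% and 5.88%). There Aldoa turned to 0.37 in both and Pfkfb2 to 0.48 and 0.53. The Slc16a3/Slc16a1 ratio turned to -0.64 on log2(FPKM + 1). Within fl/fl the number lower was 4 with a mean FPKM of at least 5 (all tested genes, 14.7%) and 5 with DESeq2 (13.1%). In that contrast limma called 25 higher and 1 lower with both pseudocounts (34.2% and 3.24% with 1, 35.5% and 3.29% with 0.1). Within CKO the number lower was 2 with that filter (all tested genes, 19.8%) and 2 with DESeq2 (16.5%). Within CKO limma called 28 higher and 0 lower with both pseudocounts (33.0% and 3.81% with 1, 34.6% and 3.8% with 0.1). DESeq2 called 1 lower for CKO-MI against fl/fl-MI (all tested genes, 1.03%) and 1 higher and 1 lower for the interaction (0.428% and 0.499%). The 4 sham libraries alone gave 5 lower (0.741%). The causes were not tested.

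Leaving out 1 library at a time gave 14 to 22 higher and 2 to 7 lower after MI with genotypes averaged, 0 to 16 and 0 to 9 within fl/fl, 0 to 22 and 0 to 6 within CKO, 0 to 2 and 0 to 3 for CKO-MI against fl/fl-MI, 0 and 0 for CKO-Sham against fl/fl-Sham, and 0 to 2 and 0 to 1 for the interaction. The other pathway genes gave 26 to 56 higher and 5 to 20 lower, the isozyme pairs without overlap numbered 5 to 9, and the Pkm share differed by -18.4 to -15.7 percentage points. A lone library left in a group was assumed to vary like the other groups. The shares called over all tested genes also changed with the library left out, so these ranges are not a result about the members.

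Same-numbered libraries did not deviate together (correlations -0.14 to 0.06), so the replicate block pairs only numbers. With the replicate block 18 members were higher and 3 lower after MI (all tested genes, 19.6% and 16.7%). Within fl/fl 9 and 2 were called (6.29% and 5.75%), within CKO 15 and 0 (9.89% and 9.2%), and in the genotype contrasts and the interaction 0. With the 2 CKO-MI numbers crossed, a fit added after seeing the data, 0 members were called in that contrast of the MI groups.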
